A study of Mus musculus with 6 samples.

Results

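The 10 genes described here encode the transcription factor NF-κB and the proteins that hold it in check: the subunits Nfkb1, Nfkb2, Rel, Rela and Relb, the inhibitors Nfkbia, Nfkbib, Nfkbie and Nfkbiz, and the ubiquitin-editing enzyme Tnfaip3. They were taken by gene symbol from the deposited count table, which holds 53819 genes. All 10 had a row and all 10 passed the filter on low counts, as members of the 15232 genes tested.

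NF-κB is a dimer of subunits that share a DNA-binding Rel homology domain. In resting cells, inhibitors of the IκB family keep it in the cytoplasm. Signals from receptors of tumour necrosis factor, interleukin-1 and microbial products activate the IκB kinase (IKK) complex, which marks the inhibitors for destruction, and the freed dimers enter the nucleus and switch on target genes. The genes of several inhibitors and subunits are themselves targets, which gives the pathway negative feedback. In myeloid leukaemias, activity of this pathway has been linked to the survival of leukaemic stem and progenitor cells.

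RNA was measured in 6 libraries of leukaemia cells sorted from mouse spleens, 3 labelled SLC6A6 KO and 3 labelled SLC6A6 WT. The mice of both groups were recipients of primary leukaemia cells with BCR-ABL and NUP98-HOXA9, fusion genes that together give a mouse model of blast-crisis chronic myeloid leukaemia (bcCML). Slc6a6 encodes the taurine transporter, and the study asks what its loss does to these cells. The labels say KO, but the study's title says knock-down. The labels give neither the allele or the means of deletion, the sorting marker, the age and strain of the mice, nor whether each library is a mouse or leukaemia of its own. The p-values therefore rest on library-to-library spread that may be technical.

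Library totals lay between 42829294 and 49537098 counts. Slc6a6 itself was at 125, 132 and 133 CPM (counts per 1000000) in the KO libraries, against 151, 145 and 145 CPM in the WT libraries, so it was 11.7% lower in KO without passing the test (edgeR, log2 fold change −0.18 ± 0.07, SE, adjusted p = 0.196). Counts per gene therefore do not check the genotype, and KO and WT are used as the labels of the libraries. Transcripts of Kdm5d, Uty, Eif2s3y and Ddx3y, all Y-linked, had 10274 to 11236 counts together in each KO library and 0 or 1 in each WT library, so genotype and the sex of the cells cannot be told apart. Of the 10 leukaemia markers, Ptprc, Kit, Hoxa9, Meis1, Spi1, Nup98 and Abl1 were at 9.90 CPM or more in every library. Itgam lay between 0.196 and 1.76 CPM, Cebpa between 0 and 0.812 CPM and Cd34 between 0.878 and 16.9 CPM. These levels do not identify the cells as leukaemic, and counts per gene do not tell fusion transcripts from normal ones. Of these 10 markers 1 passed the test: Kit, a receptor of immature blood cells, rose (75.9, 74.8 and 44.6 CPM in KO, 25.6, 9.90 and 18.1 CPM in WT, adjusted p = 0.0450 in edgeR). The other 9 did not pass, and the fold change of 7 of the 10 was negative (median log2 fold change −0.47). The KO libraries lay below the WT libraries without overlap in 4 of them: the progenitor marker Cd34 (1.61 ± 0.773 CPM in KO, 8.37 ± 7.44 CPM in WT, adjusted p = 0.114 in edgeR), Hoxa9 (adjusted p = 0.0502), Nup98 (0.0961) and Abl1 (0.0986). Among all tested genes, 3.56% passed the test (1.64% higher and 1.92% lower in KO), and 14.4% had KO below WT without overlap. Markers of other blood cells were also counted. Of 8 tested B cell markers 3 rose, and the summed level of all 10 was 63.6 to 168 CPM in KO and 5.53 to 43.3 CPM in WT, where Pax5 had no count. Macrophage and monocyte markers (3 of 12 rose, none at 0 throughout a group) summed to 109 to 168 CPM in KO and 42.7 to 94.3 CPM in WT. Dendritic cell markers (3 of 9 tested rose) summed to 125 to 142 CPM in KO and 51.7 to 62.2 CPM in WT, where Siglech had no count. Of 14 tested T and NK cell markers 6 rose, while the sum of the 15, mostly Nkg7, was 749 to 1055 CPM in KO and 705 to 858 CPM in WT. Cd4 and Ncr1 had no count in WT. Erythroid markers had the largest sum, 7955 to 27807 CPM in KO and 2627 to 11149 CPM in WT. Of these 12 genes 0 passed the test, 12 had a positive fold change and 7 were higher at an unadjusted p below 0.05. Stromal and endothelial markers (0 of 3 tested called) summed to 132 to 193 CPM in KO and 118 to 253 CPM in WT. Col3a1, Pdgfra and Cdh5 had no count in any library, and Col1a1, Cxcl12 and Lepr none in KO. The part of all these cells in the results below was not tested.

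The promoters show where the pathway could feed back on its own genes. Sites of NF-κB, called κB sites, share short runs of G at one end and of C at the other. RefSeq promoter windows (GRCm38.p6, 250 bases before to 50 bases after a start site) were available for 7 of the 10 genes, not for Nfkb1, Relb and Nfkbiz. The loose pattern, GGG and CC with any 5 bases between them, read on both strands with overlapping matches counted, is common: 50.8% of all 32851 windows hold it. The strict pattern, GGGA, any base, then TTTCC, every match of which is also a match of the loose one, is rare, at 0.411% of windows. The 5 windows below begin with Nfkb2, the gene with the smallest p, at the first and second of its 3 listed start sites. Nfkbib, the other gene whose groups did not overlap, follows. The last are Nfkbia and Rel, 2 of the 7 genes that were highest in KO1 and in WT1 within their groups. Capitals mark every match of either pattern.

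Nfkb2, first start site: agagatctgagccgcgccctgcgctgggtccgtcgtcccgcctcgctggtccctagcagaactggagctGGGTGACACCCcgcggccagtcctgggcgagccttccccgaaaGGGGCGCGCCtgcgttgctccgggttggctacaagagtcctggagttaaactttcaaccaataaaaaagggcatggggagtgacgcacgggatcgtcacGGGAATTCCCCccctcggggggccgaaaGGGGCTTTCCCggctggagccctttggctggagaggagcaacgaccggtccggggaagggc

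Nfkb2, second start site: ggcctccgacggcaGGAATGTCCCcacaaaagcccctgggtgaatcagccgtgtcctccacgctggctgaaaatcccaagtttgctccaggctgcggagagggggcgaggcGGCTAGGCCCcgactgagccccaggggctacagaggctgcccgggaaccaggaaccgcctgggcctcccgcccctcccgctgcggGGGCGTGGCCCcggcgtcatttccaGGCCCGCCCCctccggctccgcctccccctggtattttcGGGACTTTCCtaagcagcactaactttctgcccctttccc

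Nfkbib: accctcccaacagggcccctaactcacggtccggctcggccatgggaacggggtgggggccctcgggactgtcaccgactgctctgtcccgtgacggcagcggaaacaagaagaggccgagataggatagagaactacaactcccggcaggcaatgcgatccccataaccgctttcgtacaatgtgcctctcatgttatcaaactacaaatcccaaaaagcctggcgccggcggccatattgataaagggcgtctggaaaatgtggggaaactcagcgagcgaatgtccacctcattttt

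Nfkbia: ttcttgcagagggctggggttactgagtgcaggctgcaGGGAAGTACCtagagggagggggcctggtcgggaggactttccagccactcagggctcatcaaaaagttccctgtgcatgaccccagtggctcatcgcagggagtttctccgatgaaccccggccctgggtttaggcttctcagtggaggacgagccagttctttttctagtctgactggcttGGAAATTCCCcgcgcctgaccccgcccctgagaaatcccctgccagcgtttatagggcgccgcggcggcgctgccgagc

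Rel: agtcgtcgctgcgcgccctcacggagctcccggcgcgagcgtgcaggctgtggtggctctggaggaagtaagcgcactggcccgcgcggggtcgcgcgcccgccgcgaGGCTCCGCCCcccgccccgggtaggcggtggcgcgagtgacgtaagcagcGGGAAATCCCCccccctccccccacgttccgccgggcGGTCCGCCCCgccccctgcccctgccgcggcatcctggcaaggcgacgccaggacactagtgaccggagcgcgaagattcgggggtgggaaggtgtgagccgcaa

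The Nfkb2 windows are chr19:46304487-46304786 and chr19:46305445-46305744 on the plus strand, and those of Nfkbib, Nfkbia and Rel are chr7:28766595-28766894, chr12:55492598-55492897 and chr11:23770920-23771219 on the minus strand, each read along the gene. The strict pattern was found in 2 of the 7 genes. In Nfkb2 it is GGGACTTTCC, starting at position 11 from the second start site. The same match lies at position −225 from the third, whose window (chr19:46305680-46305979) overlaps that of the second and is not printed. In Nfkbia it is GGAAATTCCC, starting at position −29, read from the other strand. The first Nfkb2 window has 9 loose matches over both strands, among them GGGAATTCCC at position −39 and GGGGCTTTCC at position −11. Rel has GGGAAATCCC at position −92. The Nfkbib window holds neither pattern, which says only that these letters are not in this window. Of tested genes with a window, 70.8% hold the loose pattern in at least 1 window and 0.497% the strict one, against 6 and 2 of the 7.

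None of the 10 genes passed edgeR's quasi-likelihood test between KO and WT at a Benjamini-Hochberg adjusted p below 0.05, where 3.56% of all tested genes did (1.64% higher and 1.92% lower in KO). At an unadjusted p below 0.05 Nfkb2 and Nfkbib were counted, both lower in KO, as were 22% of all tested genes. Limma-voom called 0 of the 10, against 2.96% of all genes it tested (1.62% lower in KO). DESeq2's Wald test called 1, Nfkb2, against 11.7% of all genes it tested (5.24% lower in KO). The KO and WT libraries did not overlap in 2 of the 10 genes, again Nfkb2 and Nfkbib, against 28% of tested genes in either direction and 14.4% with KO lower. The median log2 fold change of the 10 genes was 0.08, and that of all tested genes 0.01. In either direction, the share of called or separated genes among the 10 thus lay below that of the whole table. With KO lower, it lay above for DESeq2 (1 of 10 against 5.24%) and for groups without overlap (2 of 10 against 14.4%). So few genes cannot tell such shares apart.

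**Figure D1:**
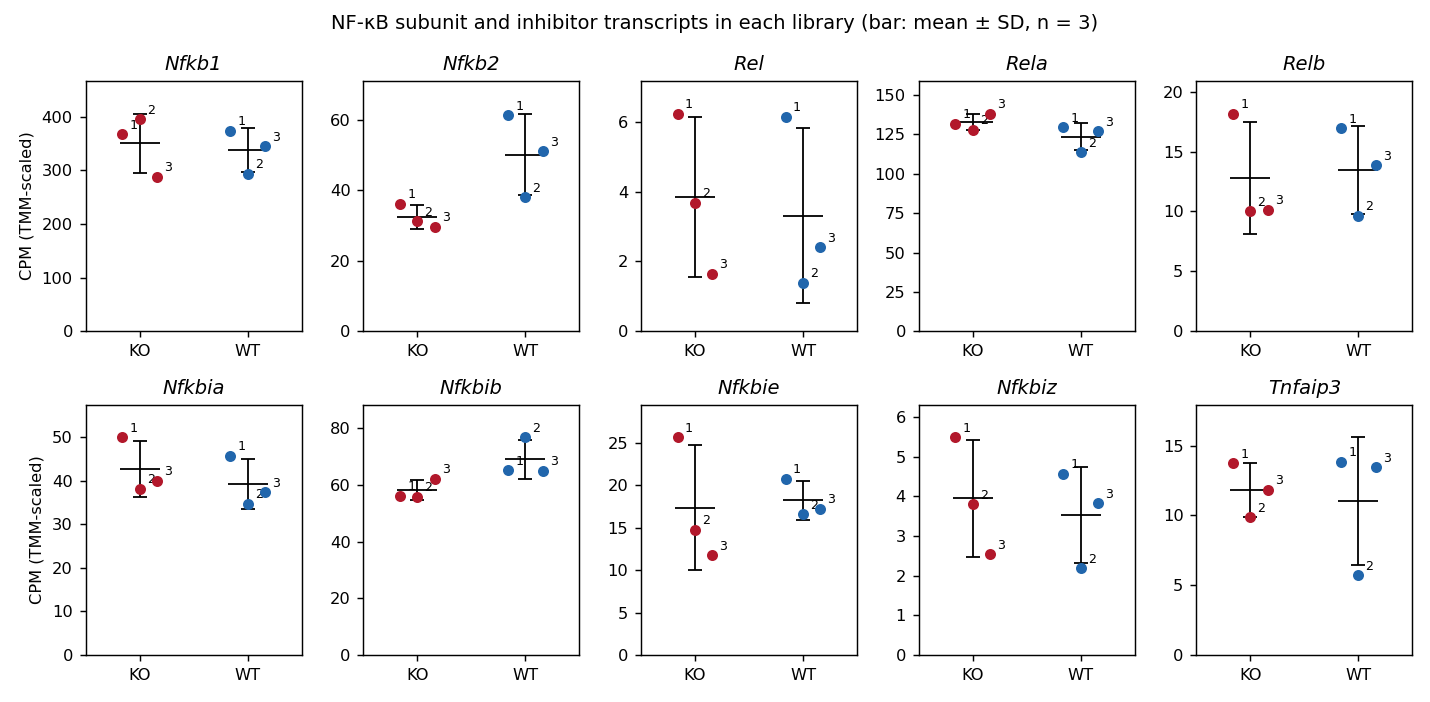
Level of each of the 10 transcripts in CPM on TMM-scaled library sizes (vertical axis from 0), with KO libraries left and WT libraries right in each panel. Points are libraries numbered as in the labels, and bars are mean ± SD (n = 3). Only Nfkb2 and Nfkbib have all 3 KO points below all 3 WT points, while library 1 of each group is the highest for Rel, Relb, Nfkbia, Nfkbie, Nfkbiz and Tnfaip3.

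Among the subunits, Nfkb2 stood apart most. It encodes the precursor protein of the alternative NF-κB pathway, which is cut to an active subunit that pairs mainly with RelB. Nfkb2 was at 36.2, 31.2 and 29.7 CPM in the KO libraries, against 61.3, 38.1 and 51.1 CPM in the WT libraries. Every KO value was below every WT value, with a gap of 1.89 CPM between KO1 and WT2. The fitted level was 35.4% lower in KO (log2 fold change −0.63 ± 0.19, SE, n = 3 against 3, 95% interval −1.07 to −0.19), with an unadjusted p of 0.0112 and an adjusted p of 0.112 in edgeR's quasi-likelihood test. DESeq2's Wald test gave an adjusted p of 0.0226, and the other 12 alternatives gave adjusted p-values between 0.0661 and 0.262, all with Nfkb2 lower in KO. Psd, which overlaps the end of Nfkb2 on the opposite strand in the mouse annotation GENCODE M21, had 100, 107 and 111 counts in KO and 214, 103 and 165 counts in WT. The library kit does not mark strand, so reads of the overlap cannot be assigned to 1 of these genes with certainty. Nfkb2 itself had 1226 to 1609 counts in KO and 1808 to 3092 in WT. The part of the overlap in the Nfkb2 difference was not tested.

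Nfkb1, which encodes the precursor of the p50 subunit of the classical pathway, did not follow Nfkb2. It had the highest CPM of the 10 genes, at 368, 395 and 288 CPM in KO and 374, 294 and 345 CPM in WT. Each group held high and low libraries, and the 95% interval of the difference ran from −17.6% to 30.6% (log2 fold change 0.05 ± 0.14, adjusted p = 0.873 in edgeR). Taken within a library, which removes any effect of scaling, there were 9.85, 7.91 and 10.3 Nfkb2 reads per 100 Nfkb1 reads in KO, against 16.4, 12.97 and 14.8 in WT. All KO ratios lay below all WT ratios. This ratio was chosen after the values were seen and uses the same Nfkb2 counts as above. An exact permutation test on its group means gave p = 0.1, the smallest value possible with 3 against 3 libraries. For the inhibitors the like ratio overlapped, with 112, 146 and 155 Nfkbib reads per 100 Nfkbia reads in KO and 142, 221 and 174 in WT (p = 0.3 in the same permutation test).

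Rela, which encodes the p65 subunit that activates most classical targets, was the steadiest of the 10. Its level was 132, 128 and 138 CPM in KO and 129.8, 114 and 127 CPM in WT. The groups overlapped, and the highest library exceeded the lowest by 1.22-fold, a smaller range than in 90.9% of tested genes. The 95% interval of the log2 fold change was −0.09 to 0.30 (0.10 ± 0.08, adjusted p = 0.523 in edgeR). Relb, the partner of the processed Nfkb2 product, was at 18.2, 10.04 and 10.2 CPM in KO and 16.96, 9.63 and 13.9 CPM in WT. KO1 and WT1 were the highest libraries of their groups, which overlapped (log2 fold change −0.08 ± 0.32, interval −0.82 to 0.67, adjusted p = 0.921 in edgeR). Rel encodes c-Rel, a subunit best known from lymphocytes and activated myeloid cells. It was scarce, at 6.23, 3.68 and 1.65 CPM in KO and 6.14, 1.39 and 2.41 CPM in WT, from 66 to 310 counts per library. Its highest library exceeded its lowest 4.48-fold, and this spread leaves a wide interval on the group difference, −1.35 to 1.78 on the log2 scale (0.22 ± 0.66, adjusted p = 0.892 in edgeR).

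Levels can be compared between genes only per length, here as CPM per kilobase of the merged exons in GENCODE M21, which may not be the annotation used for counting. On that scale the order over all 6 libraries was Rela (mean 41.7), Nfkbib (29.3), Nfkb1 (28.5), Nfkbia (25.5), Nfkb2 (9.002), Nfkbie (5.85), Relb (3.38), Tnfaip3 (1.58), Nfkbiz (0.745) and Rel (0.480). Ranges over the libraries separated Rela from Nfkbib, Nfkbia from Nfkb2, and Relb from Tnfaip3. All other neighbours in this order overlapped. Merged exons join all listed transcripts of a gene, so this length can exceed that of the RNA present and lower its value. The length was 12061 bases for Nfkb1 and 3072 bases for Rela. The order of the genes and the shares below depend on these lengths. Of the summed level of the 5 subunits per kilobase, Rela made up 52.1 ± 4.67% in KO and 48.6 ± 2.57% in WT (SD, n = 3 each), and Nfkb1 34.8 ± 4.15% and 33.7 ± 0.0656%. Nfkb2 made up 9.10%, 8.08% and 8.29% in the KO libraries and 14.6%, 11.5% and 13.1% in the WT libraries, so the groups did not overlap in its share. This share rests on the same Nfkb2 counts as the values above. Relb held 3.07% to 5.38% in KO and 3.43% to 4.75% in WT. Rel stayed below 1% in every library, at 0.282% to 0.961% in KO and 0.258% to 0.896% in WT.

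**Figure D2:**
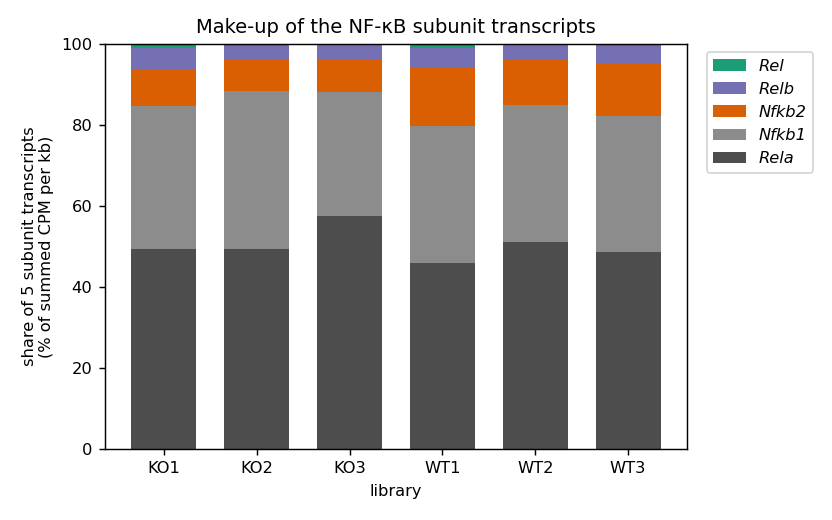
Share of each of the 5 subunit transcripts in their summed CPM per kilobase of exon (vertical axis, percent) in each library, KO libraries left. Nfkb2 (orange) takes 8.08% to 9.10% in KO and 11.5% to 14.6% in WT, and Rela and Nfkb1 together take most of the rest in every library.

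Of the inhibitors, Nfkbib was the one whose groups did not overlap. It encodes IκBβ, which is degraded and remade more slowly than IκBα. Nfkbib was at 56.1, 55.9 and 62.2 CPM in KO, against 65.2, 76.8 and 64.9 CPM in WT. KO3 and WT3 lay within 2.77 CPM of each other, and WT2 was the highest. The fitted level was 15.8% lower in KO (log2 fold change −0.25 ± 0.11, SE), with an unadjusted p of 0.0497 and an adjusted p of 0.227 in edgeR, and adjusted p-values between 0.178 and 0.448 under the alternatives. Sirt2, which starts within Nfkbib on the opposite strand in GENCODE M21, had 2909 to 3406 counts in KO and 2961 to 3184 counts in WT. Nfkbib itself had 2495 to 2566 counts in KO and 2938 to 3644 in WT. Reads of this overlap cannot be assigned with certainty either, and its part in the Nfkbib difference was not tested.

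Nfkbia encodes IκBα, the inhibitor that NF-κB induces within minutes and that ends its activity. It was at 49.98, 38.1 and 40.1 CPM in KO and 45.8, 34.7 and 37.3 CPM in WT. KO1 and WT1 were the highest of their groups, and the groups overlapped, with a 95% interval of −0.25 to 0.49 on the log2 scale (0.12 ± 0.16, adjusted p = 0.706 in edgeR). Nfkbie, which encodes IκBε, was at 25.7, 14.8 and 11.8 CPM in KO and 20.8, 16.6 and 17.3 CPM in WT. The KO libraries spanned the whole WT range, and the interval was −0.76 to 0.63 (−0.07 ± 0.29, adjusted p = 0.926 in edgeR).

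Nfkbiz encodes IκBζ, a nuclear member of the family that helps to activate a subset of targets. It was scarce, at 5.49, 3.81 and 2.55 CPM in KO and 4.58, 2.19 and 3.82 CPM in WT. The groups overlapped (log2 fold change 0.16 ± 0.41, interval −0.80 to 1.12, adjusted p = 0.863 in edgeR). Tnfaip3 encodes A20, which removes and edits the ubiquitin chains that carry the signal to IKK. It was at 13.7, 9.86 and 11.8 CPM in KO and 13.8, 5.71 and 13.5 CPM in WT. WT2 was the single low library and the other 5 lay between 9.86 and 13.8 CPM, so the groups overlapped (0.10 ± 0.35, interval −0.72 to 0.93, adjusted p = 0.906 in edgeR).

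**Figure D3:**
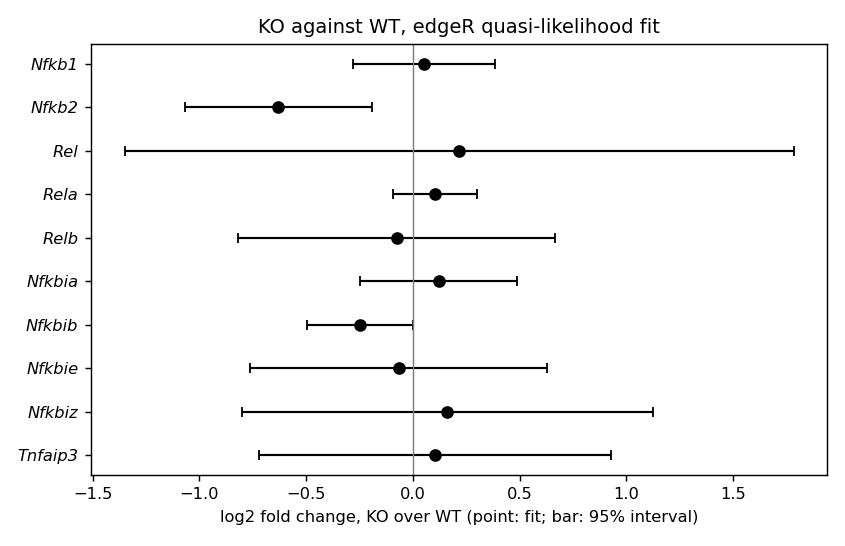
Log2 fold change of each gene, KO over WT (horizontal axis), with the fitted value as a point and its 95% interval as a bar. The bars of Nfkb2 (−1.07 to −0.19) and Nfkbib (ending at −0.00043) lie below 0, before any adjustment for the number of genes tested, and that of Rel is the widest.

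The larger differences in this family were between libraries of the same label. KO1 was the highest KO library and WT1 the highest WT library in 7 of the 10 genes, namely Nfkb2, Rel, Relb, Nfkbia, Nfkbie, Nfkbiz and Tnfaip3, and WT2 was the lowest WT library in the same 7. Among all tested genes 13.8% had KO1 and WT1 on top and 8.57% also had WT2 lowest. In the target gene list below, 16 of 28 genes had KO1 and WT1 on top and 9 also had WT2 lowest, including Icam1, Irf1 and Ebi3. These counts were made after the values were seen and carry no test, and the number 1 that KO1 and WT1 share ties them to no common batch in the labels. Relative to the mean of each gene, Rel was 1.03 higher in KO1 and 1.00 higher in WT1 on the log2 scale, and 0.87 lower in KO3 and 1.10 lower in WT2. Rela and Nfkb1 shared the WT order, so WT1 was highest and WT2 lowest in 9 of the 10 genes, but their highest KO libraries were KO3 and KO2. Nfkbib shared neither order, with KO3 and WT2 highest. Of the marker sums, only those of the neutrophil and of the macrophage and monocyte lists had KO1 and WT1 on top. The 12 neutrophil markers (0 of 11 tested called, none at 0 over a whole group) summed to 219.6, 17.8 and 81.7 CPM in KO and 859.9, 161 and 124 CPM in WT, and the 12 macrophage and monocyte markers to 168, 109 and 115 CPM in KO and 94.3, 56.1 and 42.7 CPM in WT, each with KO1 and WT1 on top. WT2, the lowest WT library of the 7 genes, was not the lowest for either sum. Of the 11 tested neutrophil markers, 8 had a negative and 3 a positive fold change (median log2 fold change −1.61). In edgeR 4 were lower and 0 higher in KO at an unadjusted p below 0.05, against 22% of all tested genes in either direction. KO lay below WT without overlap in 3, Ngp, Ltf and Camp, against 14.4% of all tested genes. Ngp was at 2.32 ± 3.18 CPM in KO and 129 ± 140 CPM in WT. The neutrophil markers Elane and Mpo had 0 CPM in KO1 and were highest in KO3 among the KO libraries. Among these libraries, the sums of T and NK cell and of leukaemia markers were highest in KO2. Those of B cell, dendritic cell, erythroid, and stromal and endothelial markers were highest in KO3. The part of any of these cell types in the order of the libraries was not tested, and fewer cells of a type and less RNA per cell cannot be told apart.

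**Figure D4:**
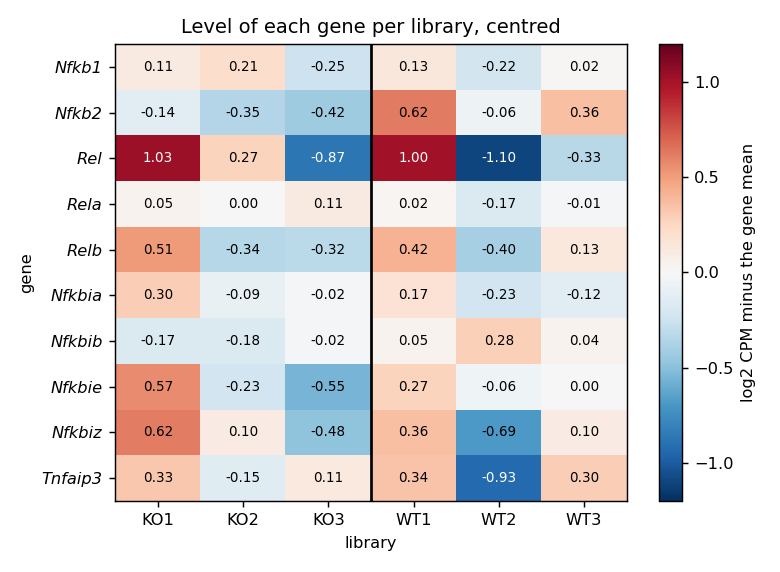
Level of each gene (row) in each library (column, KO left of the black line), as log2 CPM minus the mean of the gene over the 6 libraries; red is above that mean and blue below it. KO1 and WT1 are above the mean for Rel, Relb, Nfkbia, Nfkbie, Nfkbiz and Tnfaip3, WT2 is below it for the same genes, and Nfkb2 and Nfkbib have all 3 KO libraries below it.

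The sign of the group difference in 7 of the 10 genes depended on single libraries. Left out in turn, KO2 or WT2 turned Nfkb1 (−0.049 and −0.041 on the log2 scale). KO1 or WT2 turned Rel (−0.31 and −0.15), Nfkbiz (−0.15 and −0.091) and Tnfaip3 (−0.020 and −0.21), and KO1 turned Nfkbia (−0.0065). KO2, KO3 or WT1 turned Relb (0.067, 0.061 and 0.10) and Nfkbie (0.033, 0.14 and 0.020). Nfkb2, Nfkbib and Rela kept their sign in all 13 alternatives.

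The genes whose profile was most like that of Nfkb2 were Pdcd4, which encodes an inhibitor of translation initiation, Ptpn6, which encodes the phosphatase SHP-1 that dampens receptor signalling in blood cells, and B4galnt1, which encodes an enzyme of ganglioside synthesis. Likeness was the Euclidean distance between log2 CPM values centred on each gene's mean over the 6 libraries, over 9845 other genes that averaged 5 CPM or more, and the 3 distances were 0.148, 0.159 and 0.191. Ptpn6 was at 236, 218 and 218 CPM in KO and 460.1, 263 and 353 CPM in WT. Like Nfkb2, it had even KO libraries and spread WT libraries with WT1 highest and WT2 lowest (log2 fold change −0.68 ± 0.19, adjusted p = 0.0973 in edgeR). Pdcd4 averaged 80.4 ± 4.95 CPM in KO and 119 ± 28.1 CPM in WT (SD, n = 3 each), with an adjusted p of 0.121 in edgeR. B4galnt1 was at 99.9 ± 7.07 CPM in KO and 160.0 ± 26.8 CPM in WT (adjusted p = 0.0459 in edgeR, and between 0.000473 and 0.151 under the alternatives). These 3 genes were picked for their likeness to Nfkb2 over both groups, so a lower level in KO follows from the choice. Their p-values are therefore no separate evidence.

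Genes around these 10 in the pathway were described by role. Of all genes that each tested, edgeR called 3.56% (1.64% higher and 1.92% lower in KO), DESeq2 11.7% and limma-voom 2.96%. In edgeR 22% had an unadjusted p below 0.05. KO lay above WT without overlap in 13.6% of the tested genes, and below it in 14.4%. Of 25 ligands and receptors, 18 were tested in edgeR, where 1 rose, 0 fell and 17 did not pass (4 higher and 2 lower at an unadjusted p below 0.05, DESeq2 5 and 1, limma-voom 1 and 1, median log2 fold change 0.06). The one that rose was Tnfrsf1b, which encodes TNF receptor 2. It was at 29.1, 25.8 and 27.0 CPM in KO and 14.1, 14.3 and 13.7 CPM in WT, so the 3 libraries of each group lay close together and far from the other group. The rise was 1.95-fold (log2 fold change 0.96 ± 0.13, adjusted p = 0.0172 in edgeR). The adjusted p was 0.0723, 0.0610 and 0.0964 without KO1, KO3 or WT3, at fold changes that hardly moved (log2 0.91 to 0.99 over all alternatives). Tnfrsf11a, which encodes RANK, a receptor that signals through both NF-κB pathways, was at 2.21, 5.68 and 1.07 CPM in KO and 17.8, 15.7 and 16.5 CPM in WT. These groups were far apart as well, but KO varied 5.33-fold and the adjusted p was 0.0621 in edgeR (log2 fold change −2.48 ± 0.56). Tnfrsf11a was past the threshold with DESeq2 (adjusted p = 2.60e-05), with limma-voom (0.0292) and without KO2 (0.0242, log2 fold change −3.35), and the other alternatives reached at most 0.185. Ltb, which encodes a lymphotoxin subunit and is a ligand of the alternative pathway, was at 13.1, 6.42 and 6.79 CPM in KO and 4.70, 1.90 and 3.12 CPM in WT (adjusted p = 0.120). Il18r1, an interleukin-18 receptor chain, was at 1.13 ± 0.709 and 3.43 ± 1.90 CPM (KO and WT, adjusted p = 0.191, log2 fold change −1.60, and −2.25 without KO2). Tnf, chosen after its value was seen, was low and overlapped between the groups, at 2.65 ± 1.13 CPM in KO and 3.59 ± 0.891 CPM in WT (adjusted p = 0.595 in edgeR).

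None of the 24 adaptors and ubiquitin ligases passed edgeR's test (2 higher and 2 lower at an unadjusted p below 0.05, DESeq2 1 and 1, limma-voom 0 and 1, median log2 fold change 0.04). Card9, an adaptor of fungal receptors in myeloid cells, was at 1.51, 3.35 and 0.800 CPM in KO and 10.8, 8.03 and 8.002 CPM in WT. The groups did not overlap, and the adjusted p was 0.0645 in edgeR (log2 fold change −2.24 ± 0.52). Card9 was past the threshold with DESeq2 (adjusted p = 0.000121), with limma-voom (0.0397), with no low-count filter (0.0481) and without KO2 (0.0294, log2 fold change −2.96), and the other alternatives reached at most 0.190. Myd88, the adaptor of Toll-like and interleukin-1 receptors, averaged 125 ± 22.3 CPM in KO and 169 ± 25.2 CPM in WT (adjusted p = 0.164). Tab3, which links ubiquitin chains to the kinase TAK1, averaged 44.0 ± 11.1 and 25.05 ± 6.33 CPM (adjusted p = 0.126), and Irak2, a kinase of the Myd88 complex, 20.6 ± 10.3 and 9.91 ± 3.27 CPM (adjusted p = 0.224), each KO before WT.

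Of the 9 IKK kinases and partners none passed edgeR's test (2 higher and 0 lower at an unadjusted p below 0.05, DESeq2 and limma-voom 0). Their median log2 fold change was 0.12. KO lay above WT without overlap in 3 of the 9 (Ikbkg, Map3k14 and Tbk1) and below it in 0, against 13.6% and 14.4% of all tested genes. Ikbkg, the regulatory subunit of IKK, was at 70.3, 64.9 and 88.4 CPM in KO and 56.7, 61.7 and 55.3 CPM in WT. All KO values were above all WT values (log2 fold change 0.36 ± 0.13, adjusted p = 0.170 in edgeR). The catalytic subunits, chosen after their values were seen, overlapped between the groups: Chuk averaged 103 ± 15.5 CPM in KO and 105 ± 7.39 CPM in WT, and Ikbkb 170.3 ± 6.31 and 157 ± 17.4 CPM. Map3k14 encodes NIK, the kinase that triggers processing of the Nfkb2 product. It was scarce, at 2.23, 2.13 and 1.72 CPM in KO and 0.872, 0.695 and 1.46 CPM in WT. Its groups did not overlap, in the direction opposite to Nfkb2 (log2 fold change 1.01 ± 0.41, adjusted p = 0.211 in edgeR). Tbk1, a related kinase of interferon signalling, averaged 92.7 ± 19.2 and 74.4 ± 3.20 CPM (adjusted p = 0.265), and its adaptor gene Tbkbp1 3.08 ± 1.25 and 2.16 ± 0.326 CPM (adjusted p = 0.484), in KO and WT.

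Of 20 further inhibitors and brakes none passed edgeR's test (1 higher and 3 lower at an unadjusted p below 0.05, DESeq2 0 and 3, limma-voom 0 and 0). Their median log2 fold change was 0.02. Otulin, the enzyme that removes linear ubiquitin chains, was at 63.0, 55.0 and 66.8 CPM in KO and 85.8, 85.4 and 78.1 CPM in WT. All KO values were below all WT values, with an adjusted p of 0.0689 (log2 fold change −0.43 ± 0.10). Otud7b, a deubiquitinase that stabilises TRAF3 and so restrains the alternative pathway, was at 31.5 ± 0.921 CPM in KO and 42.5 ± 6.27 CPM in WT (adjusted p = 0.120). Irak3, which blocks signalling from Toll-like receptors, was at 39.9, 43.2 and 34.5 CPM in KO and 105, 53.6 and 53.2 CPM in WT, where WT1 was far above the other 2 libraries (adjusted p = 0.138). Itch, a ubiquitin ligase that works with A20, averaged 88.5 ± 7.03 and 69.3 ± 12.6 CPM (KO and WT, adjusted p = 0.210). Bcl3, a nuclear IκB relative that was chosen after its value was seen, was at 14.4, 12.7 and 7.44 CPM in KO and 7.61, 1.64 and 5.13 CPM in WT (adjusted p = 0.2302 in edgeR).

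Of 34 target genes, 28 were tested, 1 rose, 2 fell and 25 did not pass the test (median log2 fold change −0.03). In this list limma-voom called 0 genes, and DESeq2 6 higher and 5 lower. Over all genes tested, edgeR called 3.56%, limma-voom 2.96% and DESeq2 11.7%. Bcl2l1, which encodes the survival protein BCL-XL and is also a target of STAT5 and of erythroid factors, rose 1.67-fold. It was at 157, 123 and 161 CPM in KO and 79.4, 105 and 79.5 CPM in WT (log2 fold change 0.74 ± 0.15, adjusted p = 0.0494 in edgeR). KO2 was the lowest KO library and WT2 the highest WT library, and the same was true of the summed erythroid markers (24466, 7955 and 27807 CPM in KO, 2627, 11149 and 6203 CPM in WT, 0 of 12 called, none at 0). Their part in the Bcl2l1 result was not tested. Ccl3, a chemokine of myeloid cells, fell by 92.9%, with 0.360, 1.46 and 2.18 CPM in KO and 33.9, 7.86 and 14.7 CPM in WT (log2 fold change −3.82 ± 0.78, adjusted p = 0.0479 in edgeR). Without WT1 the log2 fold change was −3.10, without KO3 it was −4.37 and without KO1 −3.37. Ebi3, a subunit of interleukin-27 and interleukin-35, fell by 71.8%, with 3.78, 2.40 and 2.28 CPM in KO and 14.1, 6.79 and 9.09 CPM in WT (log2 fold change −1.83 ± 0.36, adjusted p = 0.0460 in edgeR). Ccl3 and Ebi3 were past the threshold in none of the 6 fits without 1 library, with adjusted p-values of 0.0640 to 0.133 and 0.0637 to 0.140, and Bcl2l1 only in the fit without KO2 (0.0416, against 0.0521 to 0.191 in the other 5).

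Vcam1, an adhesion molecule gene, had the widest positive difference among the named targets, at 30.1, 9.49 and 9.70 CPM in KO and 3.35, 2.84 and 1.48 CPM in WT, with an adjusted p of 0.0523 (log2 fold change 2.68 ± 0.56). KO1 was well above the other KO libraries, and without it the log2 fold change was 1.91 (adjusted p = 0.103). Vcam1 was past the threshold with DESeq2 (adjusted p = 3.23e-06), with no low-count filter (0.0471), at 1 CPM or more in 3 libraries (0.0446) and without KO2 (0.0493). Vcam1 is also expressed by the macrophages of the spleen, whose summed markers are given above, and their part was not tested. Among targets chosen after their values were seen, Irf1, a factor also induced by interferon, averaged 31.2 ± 3.49 CPM in KO and 14.6 ± 6.77 CPM in WT with no overlap (adjusted p = 0.113 in edgeR). Irf1 was past the threshold with DESeq2 and in the fit without WT1. The groups overlapped for Birc3, a ubiquitin ligase that protects from cell death, at 16.6 ± 1.998 and 21.2 ± 5.32 CPM, and for the adhesion molecule gene Icam1, at 16.8 ± 4.14 and 18.8 ± 1.54 CPM, KO before WT.

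**Figure D5:**
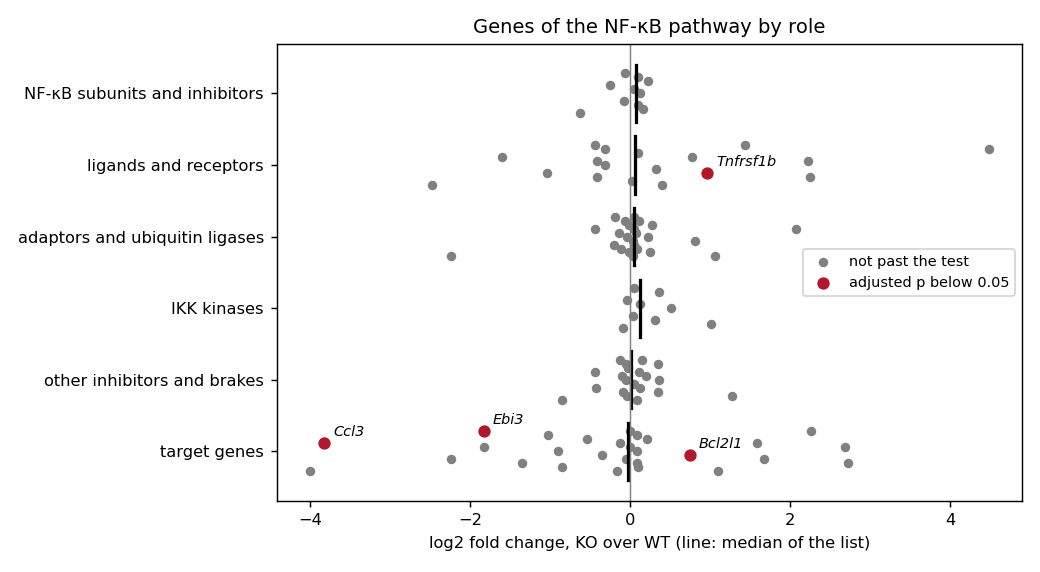
Log2 fold changes, KO over WT (horizontal axis), of the 10 genes and of the pathway lists by role; each point is a gene, red where the adjusted p was below 0.05, and black lines are medians. The medians lie between −0.03 and 0.12, and the 4 genes past the test are Tnfrsf1b and Bcl2l1 (higher) and Ccl3 and Ebi3 (lower).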

How the data were processed

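RNA was sequenced from 6 libraries after poly(A) pre-amplification (SMARTer Ultra Low Input) and Nextera XT tagmentation, per the labels' protocols. The kit marks neither strand nor molecules, so intervals cover no amplification error. The deposited values are raw counts of reads per gene. They were made with featureCounts, Subread 2.0.1, fastp 0.23.1 and STAR 2.7.9a, per the submitters' processing notes; the build, annotation and parameters behind them are not given here. RefSeq and GENCODE M21 served for promoters, exon lengths and overlaps.

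Counts were filtered with edgeR's filterByExpr (minimum count 10, minimum total 15), scaled by TMM and compared, KO over WT, with the quasi-likelihood F test (robust, no covariate) in edgeR 4.0.16 under R 4.3.3, with Benjamini-Hochberg adjustment over 15232 genes and a threshold of 0.05. All adjusted p-values are from this fit unless DESeq2 1.42.0 or limma-voom (limma 3.58.1) is named. Each SE is the log2 fold change over the square root of F, and 95% intervals use the fit's degrees of freedom. CPM values use TMM-scaled sizes. The code was tested on simulated data. No sample column was left unused.

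The 10 genes, the lists (5 of the pathway, with 112 genes, and 8 of cell markers), the motifs and the naming rule were chosen with earlier results of these data known. Each pathway list gives its genes past the test and, where fewer than 4, those with the smallest p up to 4, at 1 CPM or more. Other genes are said to be chosen later. Alternatives were other scalings, tests and filters, the replicate number as a block, and each library left out.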

Additional observations from a re-analysis of the deposited data

How the results depend on the processing

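Over all tested genes, 250 were higher and 293 lower in KO. DESeq2 called 1158 and 932, and the 6 fits without 1 library called 13 to 371 and 29 to 247. With the replicate number as a block the counts were 8 and 20. Same-numbered libraries share only a number: their deviations from the group means correlated at 0.06, −0.14 and −0.07 over genes for numbers 1, 2 and 3, and not every library correlated best with its own number. Of the 10 NF-κB genes none was higher in any alternative, and 1 was lower with DESeq2 (Nfkb2). Of the pathway lists together 2 genes were higher and 2 lower, and with DESeq2 12 and 10. Under the replicate block both counts were 0. With RLE size factors 1 gene was higher, with limma-voom 1, and without 1 library 0 to 3 were higher and 0 to 2 lower. Limma-voom kept only Tnfrsf1b of these 4 genes, although its count of lower genes was 2. The cause of these differences was not tested, except that fits without a library have fewer samples. Without 1 library, log2 fold changes ranged over −0.049 to 0.17 for Nfkb1, −0.31 to 1.00 for Rel, −0.42 to 0.10 for Relb, −0.0065 to 0.23 for Nfkbia, −0.46 to 0.14 for Nfkbie, −0.15 to 0.39 for Nfkbiz, −0.21 to 0.28 for Tnfaip3 and −0.14 to 0.068 for Chuk. The sign changed in these 7 of the 10 genes and in 1 of the 31 other genes named, and in no fit with all 6 libraries. Of the pathway genes named as not past the test, DESeq2 also called Ltb, Tab3, Otulin, Otud7b and Irak3 (adjusted p = 0.00991, 0.0199, 0.0107, 0.0437 and 0.0230). Irf1 was called by DESeq2 as well, and in the fit without WT1. The lowest count of the 10 genes in a library was 66, for Rel, and the part of depth in its wide interval was not tested.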
